A study of Homo sapiens with 15 samples.

Results

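RNA of phosphoinositide 3-kinase (PI3K) subunits and of a lipid phosphatase that works on their product was followed through 3 sorted fractions of PEO1. PEO1 is an established line of human ovarian cancer cells. The members were taken from a list of 9 genes, namely the catalytic subunits PIK3CA, PIK3CB, PIK3CD and PIK3CG, the regulatory subunits PIK3R1, PIK3R2 and PIK3R3, the class II enzyme PIK3C2A and the phosphatase INPP4B. The members were chosen with earlier results of these data known. A gene was read through every probe set (a group of short oligonucleotides designed against a transcript) that is annotated to that gene and to no other. By this rule 7 of the 9 genes had 25 probe sets, out of 41091 probe sets and 19775 genes on the array. PIK3CA and PIK3R2 were not analysed here. Of the 25 probe sets, 18 rose above the floor of 16 intensity units on at least 1 array and were tested, which left 6 genes. The other 7 lay under the floor on all 15 arrays.

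Parental PEO1 cells were grown in RPMI-1640 medium with serum, trypsinised and stained alive for the surface proteins CD90 and CD133, then separated on a flow sorter into a CD90-/CD133-, a CD90+/CD133- and a double-positive CD90+/CD133+ fraction. All 3 fractions therefore came from 1 cell line, in the same medium and with no drug or genetic change. Each fraction was hybridised to 5 whole-genome expression arrays, numbered replicate 1 to 5 in the labels, while the series' design text speaks of triplicates. The methods call the 5 arrays of the first 2 fractions biological replicates. Replicates 4 and 5 carry the same code in their labels. Where these arrays did not come from separate cultures, the p-values below measure the spread between sorts or hybridisations alone. The study isolated CD90+ PEO1 cells as stem-like cells, and the comparisons ask how their RNA differed from that of CD90- cells, and from that of cells that also carry CD133.

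Class I PI3K enzymes pair a catalytic with a regulatory subunit. When a receptor or an adaptor protein binds the regulatory subunit, the catalytic subunit adds a phosphate to a membrane lipid and makes PIP3, which brings the kinase AKT to the membrane. AKT drives growth and survival and keeps FOXO transcription factors out of the nucleus. Class II and class III enzymes make related lipids, and lipid phosphatases such as INPP4B break the signal lipids down. In ovarian carcinoma the pathway is known for frequent alteration.

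The sort could be followed in the RNA. THY1, which encodes CD90, had geometric mean intensities of 76.3 in CD90-/CD133-, 971 in CD90+/CD133- and 1417 in the double-positive cells, and the log2 differences from CD90-/CD133- cells were 3.67 and 4.22. PROM1, which encodes CD133, had means of 21.4, 42.2 and 876, and its 5 arrays in CD90+/CD133- cells spread from 21.5 to 156. The arrays were alike in scale, with median intensities from 29.4 to 32.4 and 32.7% to 34.5% of probe sets under the floor. The 10 markers of ovarian carcinoma epithelium were all expressed (mean of 64 or more over the 15 arrays). Their summed intensity ran from 51800 to 64290 in CD90-/CD133-, from 36290 to 48680 in CD90+/CD133- and from 32530 to 45320 in CD90+/CD133+ cells. In CD90+/CD133- against CD90-/CD133- cells 4 of them fell, the keratins KRT7, KRT8, KRT18 and KRT19, and 3 rose, EPCAM (0.33), PAX8 (0.30) and MUC1 (0.46). Of all tested genes, 22.6% were called lower and 18.9% higher in that comparison. The sum is led by the bright keratins, such as KRT18 with means of 19110 and 12570. Leukocyte markers summed to between 564.7 and 797.2 over all 3 fractions, with 2 of 12 under the floor throughout, PTPRC (CD45) and TYROBP, and 4 of 12 at a mean of 64 or more. CD90 also marks fibroblasts. Of 10 fibroblast markers COL3A1, LUM and POSTN were under the floor on all arrays and 1 reached that mean, and the list summed to 421.5 to 496.1, 328.5 to 359.7 and 369.4 to 440.2 in the 3 fractions. FAP alone fell against CD90-/CD133- cells, from a mean of 143.9 to 35.4 in CD90+/CD133- and 36.5 in double-positive cells, while DCN rose by 0.33 in CD90+/CD133- and COL1A1 by 0.26 in double-positive cells. For endothelium 3 of 8 markers were under the floor and 0 reached the mean of 64. The part of the keratin difference in the results below was not tested.

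The promoters of the 3 genes that rose in both CD90+ fractions are shown, with the recognition core of hypoxia-inducible factors (HIF), the factors the study examined, and a FOXO site, the factors AKT restrains, as the letters searched. Sequences are from RefSeq (GRCh38.p14), 250 bases that end just before the most upstream of the starts held for each gene in the promoter table used, printed 5′ to 3′ on the gene's strand. They lie at chr1:46174902-46175151 (minus strand) for PIK3R3, chr3:138834929-138835178 (minus strand) for PIK3CB and chr1:9651481-9651730 (plus strand) for PIK3CD, whose annotated gene span begins further upstream. Capitals mark a match to ACGTG or to GCGTG (the HIF core) or to GTAAACA (FOXO), on either strand. On the opposite strand ACGTG reads CACGT, while GCGTG reads CACGC and GTAAACA reads TGTTTAC, and ACGTG overlaps its own reverse in CACGTG.
PIK3R3: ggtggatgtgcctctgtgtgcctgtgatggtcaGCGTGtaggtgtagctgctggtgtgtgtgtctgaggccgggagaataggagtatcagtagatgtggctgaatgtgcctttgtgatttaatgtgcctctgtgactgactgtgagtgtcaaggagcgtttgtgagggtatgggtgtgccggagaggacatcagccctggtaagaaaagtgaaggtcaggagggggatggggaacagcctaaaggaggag
PIK3CB: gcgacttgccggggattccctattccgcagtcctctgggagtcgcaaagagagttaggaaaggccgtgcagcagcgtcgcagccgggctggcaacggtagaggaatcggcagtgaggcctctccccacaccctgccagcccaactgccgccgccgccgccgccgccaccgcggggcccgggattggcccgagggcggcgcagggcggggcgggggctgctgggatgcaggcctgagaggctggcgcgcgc
PIK3CD: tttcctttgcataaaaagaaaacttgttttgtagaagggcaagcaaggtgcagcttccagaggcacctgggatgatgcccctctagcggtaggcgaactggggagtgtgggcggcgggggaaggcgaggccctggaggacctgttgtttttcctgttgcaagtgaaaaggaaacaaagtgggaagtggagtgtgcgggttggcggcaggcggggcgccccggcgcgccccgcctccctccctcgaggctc
The PIK3R3 window held 1 match to GCGTG, and the other two windows held 0 matches. Among 35116 promoter windows of the same length, ACGTG occurred in 18.5%, GCGTG in 32.2% and GTAAACA in 2.98%. These windows of PIK3R3, PIK3CB and PIK3CD held 4, 27 and 14 CpG dinucleotides, against a median of 11. Further starts are listed for these genes, whose windows held 4 to 21 CpG for PIK3R3, 2 for PIK3CB, and 33 and 3 for PIK3CD. ACGTG was found before 3 of 6 starts of PIK3R3, 0 of 2 of PIK3CB and 0 of 3 of PIK3CD. The windows of PIK3R3 starts 3 and 4, both among those with ACGTG, overlap. GTAAACA was found before none of the 23 starts listed for the 7 genes with probe sets. A match describes letters in a window and no binding was measured.

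In CD90+/CD133- against CD90-/CD133- cells, 4 of the 6 tested genes were higher (PIK3R3, PIK3CB, PIK3CD and PIK3C2A), 1 was lower (INPP4B) and PIK3R1 was not called. A gene was called at a Benjamini-Hochberg adjusted p under 0.05 over all 31974 tested probe sets in limma, with the replicate number as a block, and was read from its probe set with the highest mean. Of the 16393 genes tested in this way, 18.9% were called higher and 22.6% lower. The median log2 difference was 0.52 over the 6 genes and -0.02 over all genes. The study's table of genes raised in CD90+ cells, drawn from these arrays, lists PIK3CA, PIK3CB, PIK3CD and PIK3R3. The direction of the latter 3 is therefore no independent evidence, nor are the count and the median that include them. The other tested members had log2 differences of 0.24 (PIK3C2A), 0.02 (PIK3R1) and -0.43 (INPP4B). In CD90+/CD133+ against CD90-/CD133- cells 3 genes were higher (PIK3R3, PIK3CB and PIK3CD) and INPP4B was again lower, against 18.3% and 21.7% of all genes. These 2 comparisons share the 5 CD90-/CD133- arrays. Between the CD90+ fractions 0 of the 6 genes passed in either direction, where 4.98% of genes were called higher and 4.72% lower with CD133. At an unadjusted p under 0.05 in limma PIK3CD was higher and PIK3R1 lower there. Other probe sets of PIK3R1, PIK3C2A and INPP4B did pass as lower in that comparison, as given below. Intensities of different probe sets depend on their oligonucleotides, so levels are compared within a probe set alone. In sorted populations, fewer cells that carry a transcript and less of it per cell cannot be told apart.

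**Figure D1:**
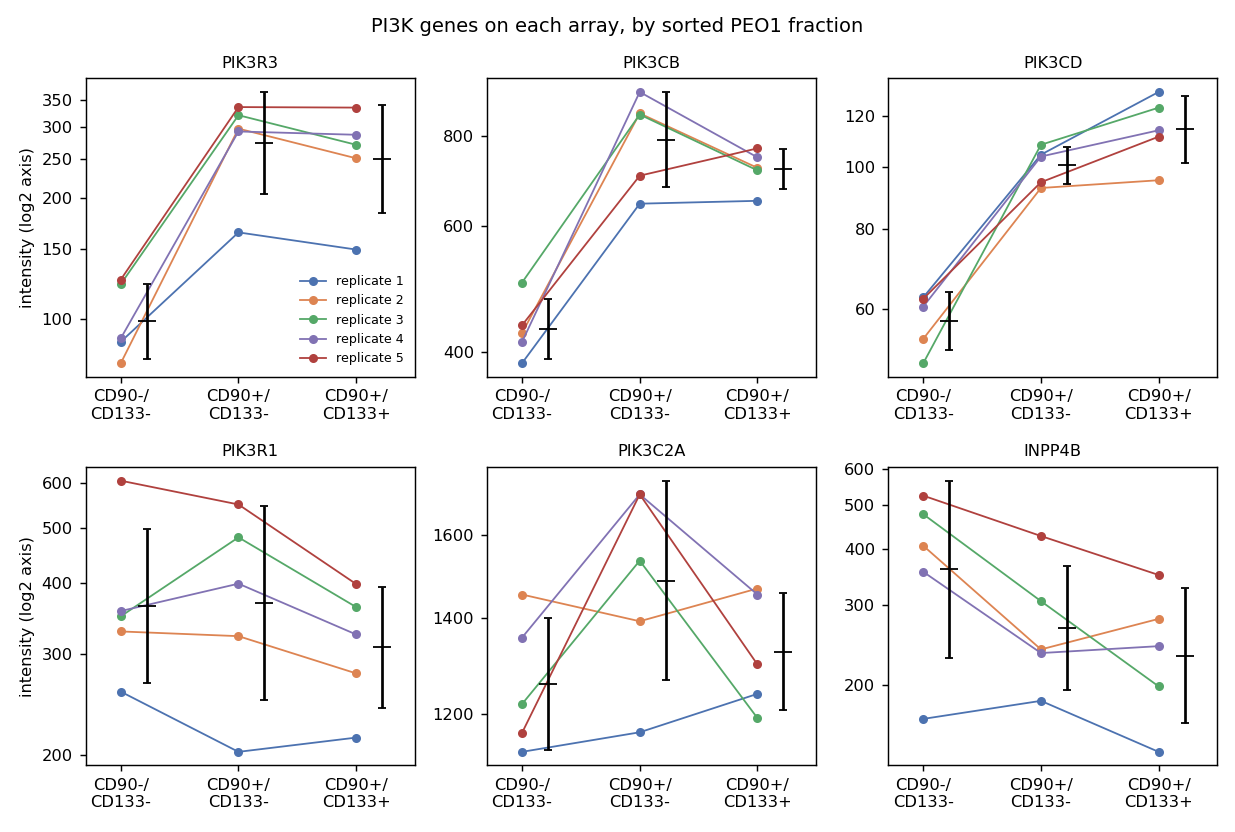
Intensity (log2 axis, each panel with its own range) of the 6 tested genes, each from its probe set with the highest mean, on every array of the 3 fractions; lines join arrays with the same replicate number, and the bars give the mean ± SD of log2 values (n = 5). For PIK3R3, PIK3CB and PIK3CD every array of both CD90+ fractions lies above all 5 CD90-/CD133- arrays, while for PIK3R1, PIK3C2A and INPP4B the fractions overlap.

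Among the catalytic subunits, PIK3CB encodes the beta subunit, which takes input from both receptor tyrosine kinases and G protein-coupled receptors. Its probe set 212688_at read 386.5, 425.5, 500.1, 413.7 and 436.3 in CD90-/CD133- replicates 1 to 5. The CD90+/CD133- arrays read 643.4, 858.7, 855.5, 919.4 and 703.6, and the CD90+/CD133+ arrays 649.3, 721.5, 715.7, 746.2 and 767.8. The lowest CD90+ array lay above the highest CD90-/CD133- array, and the 2 CD90+ fractions overlapped. The log2 difference was 0.87 ± 0.08 (SE, adjusted p = 8.88e-06, 1.83-fold) in CD90+/CD133- and 0.74 ± 0.08 (adjusted p = 2.96e-05) in CD90+/CD133+ cells, higher in 5 of 5 replicate pairs each time. Between the CD90+ fractions the difference was -0.13 (95% interval -0.31 to 0.04). A dimmer probe set, 217620_s_at, gave 0.58 (adjusted p = 0.000829) and 0.24 (adjusted p = 0.0851), so the second comparison rests on 212688_at.

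PIK3CD encodes the delta subunit, best known from leukocytes. Probe set 203879_at read 62.5, 53.8, 49.3, 60.4 and 62.2 in CD90-/CD133- replicates 1 to 5. It read 104.5, 92.7, 108.3, 103.8 and 94.6 in CD90+/CD133- and 131, 95.3, 123.8, 114.1 and 111.5 in CD90+/CD133+ cells. No CD90+ array came down to the CD90-/CD133- range. The log2 differences were 0.81 ± 0.08 (SE, adjusted p = 1.49e-05, 1.75-fold) and 1.00 ± 0.08 (adjusted p = 3.84e-06). CD90+/CD133+ arrays were above CD90+/CD133- arrays in 5 of 5 pairs, by 0.19 on the log2 scale (95% interval 0.01 to 0.36), but the adjusted p of 0.152 did not pass. The second probe set, 211230_s_at, gave 0.34 (adjusted p = 0.0099) and 0.35 (adjusted p = 0.00829). Because PIK3CD is a leukocyte gene, the leukocyte markers stand beside it: 2 of the 10 tested (CD14 and ITGB2) were higher and 1 (CORO1A) lower in each CD90+ fraction against CD90-/CD133- cells, and PTPRC read under the floor on every array. Of all genes, 18.9% were called higher and 22.6% lower in CD90+/CD133-, and 18.3% and 21.7% in CD90+/CD133+ cells.

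The gamma subunit PIK3CG, the catalytic partner of G protein-coupled receptors in leukocytes, was under the floor with all 3 of its probe sets on 15 of 15 arrays and was not tested. Its brightest probe set, 206369_s_at, read between 6.61 and 8.42.

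Of the regulatory subunits, PIK3R3 encodes a short form that binds phosphorylated receptors and adaptors, and it had the largest differences of the 6 genes. Probe set 202743_at read 88, 77.8, 122.4, 89.7 and 125.6 in CD90-/CD133- replicates 1 to 5. It read 164.5, 297.9, 321.7, 293.1 and 337 in CD90+/CD133- and 149.1, 251.4, 271.6, 287.6 and 336 in CD90+/CD133+ cells. Replicate 1 was the lowest array of each CD90+ fraction by far, yet still above the highest CD90-/CD133- array. The log2 difference was 1.47 ± 0.13 (SE, adjusted p = 8.61e-06, 2.78-fold with a 95% interval of 2.27 to 3.39) in CD90+/CD133- and 1.34 ± 0.13 (adjusted p = 1.70e-05) in CD90+/CD133+ cells. CD90+/CD133+ arrays were lower than CD90+/CD133- arrays in 5 of 5 pairs, with a difference of -0.13 (adjusted p = 0.575, 95% interval -0.42 to 0.16). The dim second probe set, 211580_s_at (means of 21, 28.8 and 28.8), gave 0.45 in both comparisons (adjusted p = 0.0166 and 0.0174). A readthrough gene, P3R3URF-PIK3R3, overlaps this locus and its transcripts cannot be told apart from those of PIK3R3 here.

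PIK3R1 encodes the main regulatory subunit, which also stabilises the catalytic subunits. It moved more between replicate numbers than between fractions. Probe set 212239_at read 257.9, 329, 349.8, 357.3 and 605.2 in CD90-/CD133- replicates 1 to 5, 202.2, 322.8, 481.3, 399.1 and 549.7 in CD90+/CD133- cells, and 214.2, 277.7, 363.1, 325 and 398.5 in CD90+/CD133+ cells. Replicate 1 was the lowest and replicate 5 the highest in each fraction, and the means of these numbers differed 2.28-fold. The log2 differences of the fractions were 0.02 (95% interval -0.21 to 0.25) and -0.24 (95% interval -0.47 to -0.01), and neither passed (adjusted p = 0.914 and 0.106). The 3 probe sets disagreed. In CD90+/CD133- cells 212240_s_at fell by 0.29 (adjusted p = 0.0212), while 212249_at had a difference of 0.32 that did not pass (adjusted p = 0.145). In CD90+/CD133+ against CD90-/CD133- cells 212240_s_at fell by 0.72 (adjusted p = 8.44e-05) and 212249_at fell by 0.52 (adjusted p = 0.0243). Both were also lower than in CD90+/CD133- cells, with log2 differences of -0.42 (adjusted p = 0.0171) and -0.84 (adjusted p = 0.0126). Replicate means of these 2 probe sets spanned 3.89-fold and 2.81-fold, again with replicate 1 lowest and replicate 5 highest.

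PIK3C2A, a class II enzyme that acts in clathrin-mediated endocytosis, was bright in all fractions. Probe set 213070_at read 1130, 1454, 1220, 1357 and 1165 in CD90-/CD133- replicates 1 to 5, 1166, 1393, 1535, 1707 and 1707 in CD90+/CD133- cells, and 1240, 1468, 1193, 1454 and 1300 in CD90+/CD133+ cells. The ranges of all 3 fractions overlapped. The log2 difference of 0.24 ± 0.09 (SE) in CD90+/CD133- cells passed narrowly (adjusted p = 0.0486), and that of 0.07 in CD90+/CD133+ cells did not (adjusted p = 0.568, 95% interval -0.12 to 0.27). Without the replicate block the first call was lost (adjusted p = 0.134), as it was in 15 of 20 fits that left out a replicate number or a single array. Of its 6 tested probe sets, 235792_x_at also passed in CD90+/CD133- cells (0.24, adjusted p = 0.0293). In CD90+/CD133+ cells 226094_at fell by 0.25 (adjusted p = 0.0107) and 1569022_a_at fell by 0.35 (adjusted p = 0.0303), so the direction there depends on the probe set. Between the CD90+ fractions all 6 lay lower with CD133. Of these only 226094_at passed, with a difference of -0.40 (adjusted p = 0.008, lower in 5 of 5 pairs), while 213070_at had -0.16 (adjusted p = 0.251).

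INPP4B removes a phosphate from a lipid that PIP3 gives rise to, and is known as a brake on AKT signalling in several epithelial tumours. It was the 1 member whose tested probe sets all lay lower in both CD90+ fractions. Probe set 235046_at read 168.5, 406.3, 477, 355.9 and 524.3 in CD90-/CD133- replicates 1 to 5. It read 184.7, 239.9, 306.6, 235.5 and 427 in CD90+/CD133- and 142.5, 280.2, 198.8, 243.9 and 350.3 in CD90+/CD133+ cells. Replicate 1 was the lowest and replicate 5 the highest of every fraction, a 2.61-fold difference of replicate means, and replicate 1 alone was not lower in CD90+/CD133- cells. The log2 difference was -0.43 ± 0.14 (SE, adjusted p = 0.0341) in CD90+/CD133- and -0.63 ± 0.14 (adjusted p = 0.00488) in CD90+/CD133+ cells. Without the replicate block neither passed (adjusted p = 0.38 and 0.184). The other 2 tested probe sets varied less with the replicate number. Probe set 205376_at read 225.9, 390.9, 430.5, 345.5 and 319.9 in CD90-/CD133- cells, 198.4, 242.8, 253.3, 230.2 and 221.3 in CD90+/CD133- cells and 145.8, 220.2, 150, 198.6 and 124.7 in CD90+/CD133+ cells, lower in 5 of 5 pairs in both comparisons. Its log2 differences were -0.55 (adjusted p = 0.00511) and -1.03 (adjusted p = 8.85e-05), and CD90+/CD133+ cells were also lower than CD90+/CD133- cells, with a difference of -0.48 (adjusted p = 0.0399). Probe set 223878_at read 60.3 to 68.7 in CD90-/CD133-, 31.7 to 57.5 in CD90+/CD133- and 28.5 to 39.8 in CD90+/CD133+ cells, with log2 differences of -0.62 (adjusted p = 0.00337) and -0.98 (adjusted p = 0.000163).

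**Figure D2:**
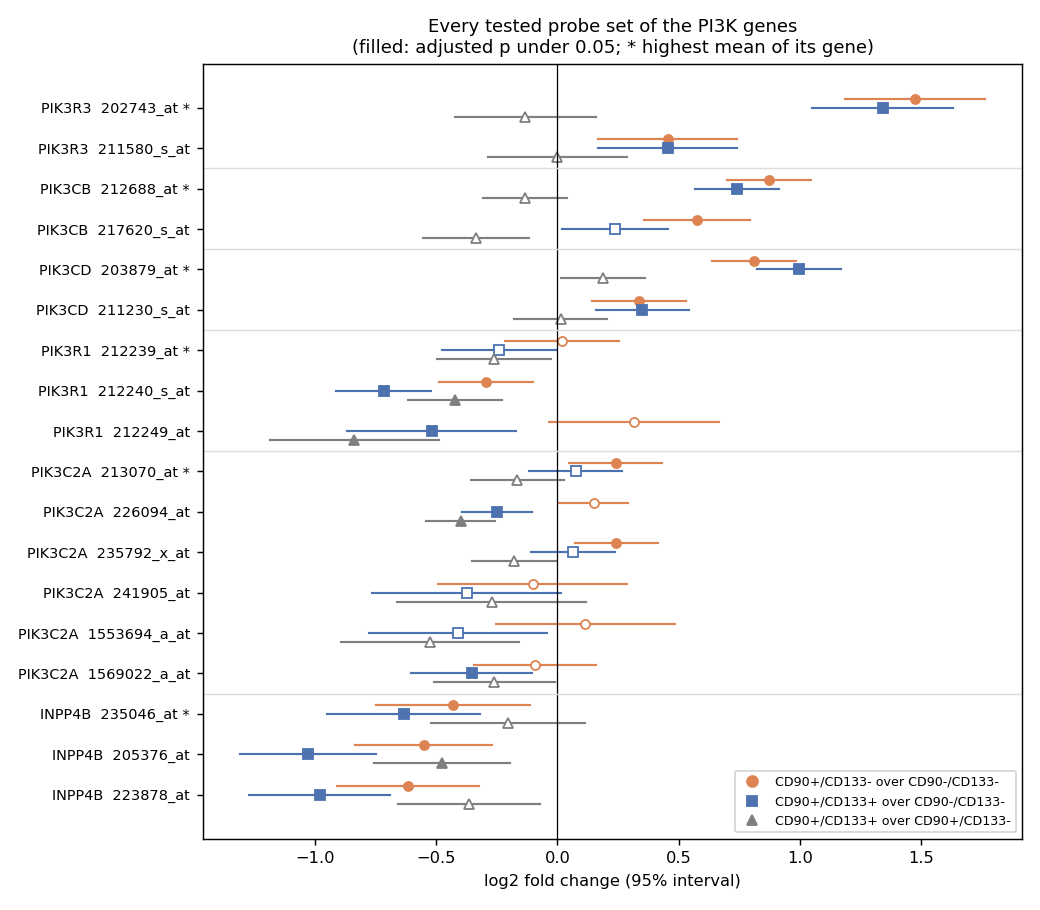
Log2 fold change with its 95% interval (limma with the replicate number as a block) for all 18 tested probe sets of the 6 genes in the 3 comparisons; filled symbols have an adjusted p under 0.05 and an asterisk marks the probe set with the highest mean. The 2 probe sets each of PIK3R3 and PIK3CD lie above 0 with intervals clear of 0 in both comparisons with CD90-/CD133- cells, and the 3 of INPP4B below 0. The 3 of PIK3R1 lie on both sides of 0 in CD90+/CD133- cells and below 0 in CD90+/CD133+ cells, and the 6 of PIK3C2A lie on both sides in each.

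A gauge of RNA integrity differed in its means between fractions. The log2 gap between the 3′ and 5′ control probe sets of GAPDH averaged 0.06, 0.19 and 0.05, and that of ACTB 1.845, 2.46 and 1.70, in the CD90-/CD133-, the CD90+/CD133- and the double-positive arrays. The wider mean gap belonged to the CD90+/CD133- arrays, while the ranges of the fractions overlapped for both controls. For ACTB they were 1.31 to 2.17, 1.82 to 3.31 and 1.03 to 2.76 in the same order. Neither the gap itself nor its part in the differences of the PI3K genes was tested.

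Chromosomal neighbours were read beside each gene, by their order on the chromosome, and copy number was not measured. The 30 expressed genes nearest to PIK3R3 on chromosome 1 had a median log2 difference of -0.06 in CD90+/CD133- against CD90-/CD133- cells, and PIK3R3 lay above 30 of 30. PIK3CD, on the same chromosome, lay above 28 of its 30 neighbours, whose median was -0.10. For PIK3CB on chromosome 3 the neighbours' median was 0.21, with 15 of the 30 called higher and 4 lower, and the gene lay above 28. Of all tested genes, 18.9% were called higher and 22.6% lower, and the shares among expressed genes alone are not given here. INPP4B on chromosome 4 lay above 7 of 30 neighbours with a median of -0.04. In CD90+/CD133+ cells its neighbours' median was -0.32 and 18 of 30 were called lower, beside 21.7% of all tested genes. INPP4B lay above 5 of these 30 neighbours. PIK3R1 and PIK3C2A lay above 20 and 24 of their neighbours in CD90+/CD133- cells.

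**Figure D3:**
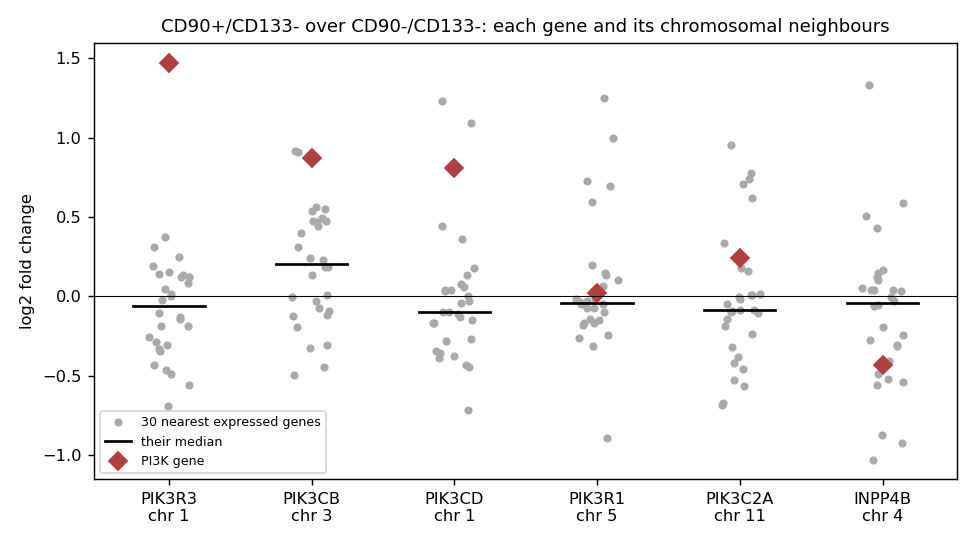
Log2 fold change in CD90+/CD133- over CD90-/CD133- cells of each tested PI3K gene (diamond) and of the 30 expressed genes nearest to it on its chromosome (points, spread sideways for legibility), with the neighbours' median as a line. PIK3R3 stands above all 30 of its neighbours, and the neighbours of PIK3CB have the highest median, 0.21.

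PIK3R3 was the 1 member whose probe set with the highest mean spanned 1 or more on the log2 scale between fractions. By the root mean square difference of centred log2 values over the 15 arrays, the genes most like it were CAMK1D, a calcium/calmodulin-dependent kinase (0.18), PCDHB14, a protocadherin (0.19), and AUTS2 (0.22). These 3 lie on chromosomes 10, 5 and 7.

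The pathway around the members was read from 6 further lists. In CD90+/CD133- against CD90-/CD133- cells 18.9% of all genes were called higher and 22.6% lower, and the list counts stand beside these shares. Of the 5 other PI3K subunits tested, 1 fell and 0 rose in CD90+/CD133- against CD90-/CD133- cells. That gene was PIK3C3, the class III enzyme of autophagy and endosome sorting, with means of 981, 410 and 350 in the 3 fractions and log2 differences of -1.26 (adjusted p = 1.07e-06) and -1.49 (adjusted p = 3.67e-07). In these probe sets the class I catalytic genes PIK3CB and PIK3CD and the class III gene PIK3C3 thus moved in opposite directions. Every list gene was read from its probe set with the highest mean, which for PIK3C3 was 1 of 7. Other probe sets of the list genes are not given here.

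Of the other phosphoinositide phosphatases, 6 of 22 tested rose, 4 fell and 12 were not called, with a median of 0.04. Over all genes 18.9% were called higher and 22.6% lower. MTM1 and MTMR1, myotubularins that act on the lipid made by class III enzymes, rose by 1.11 (adjusted p = 7.55e-06) and 0.82 (adjusted p = 1.22e-05). SYNJ2, a synaptojanin, fell by 0.87 (adjusted p = 6.84e-06) and PIP4P2 fell by 0.61 (adjusted p = 0.000566). INPP4A, the paralogue of INPP4B and picked here after its value was seen, rose by 0.50 (adjusted p = 0.000915), opposite to INPP4B. Among the phosphoinositide kinases 3 of 9 rose and 2 fell. PIP4K2A rose by 0.99 (adjusted p = 2.47e-06), PIKFYVE by 0.53 (adjusted p = 0.000286) and PI4K2A by 0.37 (adjusted p = 0.0103), and PIP5K1A, which makes the substrate of class I enzymes, fell by 0.33 (adjusted p = 0.0089).

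Receptors, adaptors and regulators that feed PI3K were split, with 6 of 20 higher, 7 lower and 7 not called. Of all genes 18.9% were called higher and 22.6% lower, and 18.3% and 21.7% in CD90+/CD133+ against CD90-/CD133- cells. The growth factor receptors IGF1R and EGFR parted. IGF1R rose from a mean of 50.4 to 136 (log2 difference 1.43, adjusted p = 4.33e-06), and EGFR fell from 1997 to 907 (-1.14, adjusted p = 9.02e-07). The insulin receptor substrates, adaptors that bind the regulatory subunits, parted too. IRS1 rose from 411 to 854 (1.06, adjusted p = 5.58e-07) and IRS2 fell from 3441 to 1567 (-1.13, adjusted p = 2.75e-05). In CD90+/CD133+ against CD90-/CD133- cells 6 rose and 8 fell, with IGF1R at 0.91, IRS1 at 1.01, EGFR at -1.46 and IRS2 at -1.18, all called. IGF1R and EGFR were lower in double-positive than in CD90+/CD133- cells, with differences of -0.52 (adjusted p = 0.0217) and -0.32 (adjusted p = 0.0224).

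In the AKT module, the kinases, partners and brakes downstream of PIP3, 3 of 24 genes rose, 8 fell and 13 were not called in CD90+/CD133- cells. In CD90+/CD133+ cells 2 rose and 9 fell. The shares of all genes called higher and lower were 18.9% and 22.6% in the former and 18.3% and 21.7% in the latter. SGK1, a kinase related to AKT, fell from a mean of 2541 to 585 (-2.12, adjusted p = 0.00135). Of the pseudokinases that scaffold protein degradation, TRIB2 fell by 0.84 (adjusted p = 0.000421) and TRIB1 fell by 0.61 (adjusted p = 0.000283), and FOXO1, a transcription factor AKT restrains, fell by 0.47 (adjusted p = 0.00234). AKT1 itself, also picked after its value was seen, fell by 0.40 (adjusted p = 0.0098) in CD90+/CD133- cells, and its difference of -0.11 in CD90+/CD133+ cells did not pass (adjusted p = 0.487). AKT2 was called in neither (0.01 and 0.16). Between the CD90+ fractions 1 of the 24 genes was higher and 7 were lower with CD133, beside 4.98% and 4.72% of all genes.

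Genes known to respond to FOXO factors did not move one way, with 7 of 17 higher, 4 lower and 6 not called, and a median of 0.22. PDK4, which restrains the use of pyruvate in mitochondria, rose by 1.05 (adjusted p = 0.00155) and BCL2L11, which encodes the death factor BIM, by 0.98 (adjusted p = 1.18e-05). PINK1, a mitochondrial quality-control kinase, fell by 1.27 (adjusted p = 6.57e-06), and IRS2, also on this list, fell as above. In CD90+/CD133+ cells 4 rose and 6 fell. The shares of all genes called higher and lower were 18.9% and 22.6% in CD90+/CD133- and 18.3% and 21.7% in CD90+/CD133+ cells. Each list is described by its counts and its median, and no list was tested as a set.

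**Figure D4:**
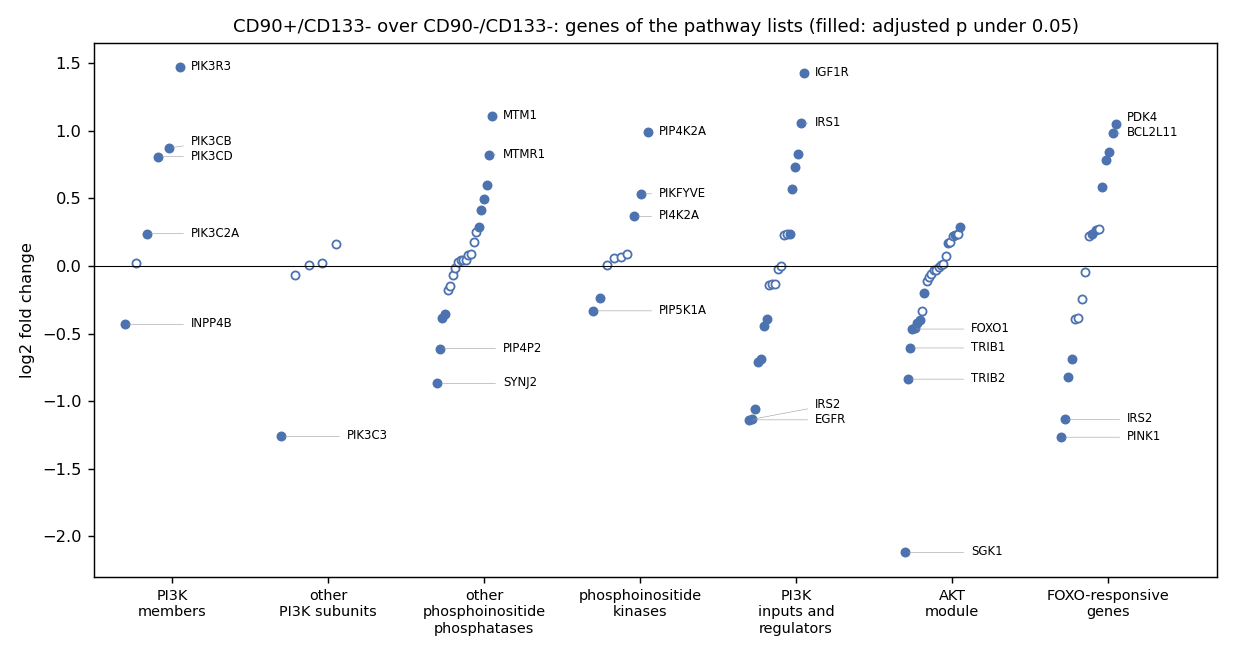
Log2 fold change in CD90+/CD133- over CD90-/CD133- cells of every tested gene of the member list and the 6 pathway lists, ordered within each list; filled points have an adjusted p under 0.05, and the genes that passed in the member list and up to 4 genes per other list are named. Every other list with more than 1 called gene holds called genes on both sides of 0, from SGK1 at -2.12 to IGF1R at 1.43.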

How the data were processed

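Total RNA of 15 sorted PEO1 samples was labelled with biotin and hybridised to Affymetrix whole-genome arrays. The authors deposited 1 linear intensity per probe set and array, normalized by cross-correlation, with 5 as the lowest value. The software that summarised the probes is not given in the sources used here, and neither is the reason for that minimum. A floor of 16 was laid under the deposited values before log2, so a fold change understates that of dim genes. No column of values was left unused. The number of arrays limits the precision.

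Probe sets were named through the platform annotation, which pairs 41097 of 54675 with 1 gene, 1801 with several and 11777 with none listed. After controls were removed 41091 remained, of which 41037 were found in RefSeq. All 3 fractions were fitted in limma 3.58.1 (R 4.3.3, lmFit and eBayes, 2-sided) over 31974 probe sets above the floor on at least 1 array, with the replicate number as a block and Benjamini-Hochberg adjustment over all of them. The script was tested on simulated data. Same-numbered arrays deviated together from their fraction means (correlations from 0.136 to 0.772, different numbers at most 0.306), and 15 of 15 arrays were closest to an array of their own number. No 2 arrays were identical.

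Named were all members, THY1 and PROM1, up to 4 called genes with the largest change per list, and the 3 genes most like each member whose fraction means span 1 or more on the log2 scale. INPP4A, AKT1 and the cell type markers were named after their values were seen. The members and lists were chosen with earlier results of these data known. Alternatives changed the floor, scaling, block, filter, probe set rule, test and arrays.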

Additional observations from a re-analysis of the deposited data

Results flagged for a closer look

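Of 52 combinations of a tested probe set and a fraction, 2 held an array set apart from the other four by more than Dixon's critical value for 5 arrays (0.71), and chance flags about 1 in 20 such groups. Both concern PIK3R3 in CD90+/CD133- cells. Probe set 202743_at read 164.5 in replicate 1 and 293.1 to 337 in the other four, a gap of 0.806 of the whole range on the log2 scale. Without that array the log2 difference from CD90-/CD133- cells was 1.54 in place of 1.47. The dim probe set 211580_s_at read 34.7 in replicate 4 and 26.3 to 28.4 in the other four, a gap of 0.724 of the range.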

How the results depend on the processing

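Each gene and comparison was recomputed under 35 alternatives. A gene was again read from its probe set with the highest mean, except where an alternative changed that rule. For INPP4B this was 235046_at, so those fits say nothing of 205376_at or 223878_at. PIK3R3, PIK3CB and PIK3CD stayed higher and called in both comparisons with CD90-/CD133- cells under all 35, with log2 differences in CD90+/CD133- cells of 0.96 to 1.62, 0.72 to 0.93 and 0.57 to 0.86. The counts of genes called higher moved by less than 1.5 times under every alternative, but PIK3C2A, 1 of the 4 in CD90+/CD133- cells, lost its call under 25 of 35. Besides the fits that left out arrays, these were the floor of 5, quantile normalization, both fits with no replicate block, the blocked fit of the 2 fractions, the label code as block, the mean of probe sets, no filter, the methods' t-test and the 1.5-fold rule. The methods name t-tests for the study in general, and for the arrays a 1.5-fold cutoff alone. The count of genes called lower in CD90+/CD133- cells rests on INPP4B alone and fell from 1 to 0 with no replicate block (all 15 arrays, or the arrays of the 2 fractions), with the label code as block, with no filter on low values, under the methods' t-test and by a 1.5-fold difference between arithmetic means. In CD90+/CD133+ against CD90-/CD133- cells the count fell from 1 to 0 with no replicate block (both ways) and under the methods' t-test, and was 2 with the mean of a gene's probe sets. Between the CD90+ fractions it was 3 with the mean of probe sets (PIK3CB, PIK3R1 and PIK3C2A) against 0. The same mean turned the difference of PIK3C2A in CD90+/CD133+ cells from 0.07 to -0.14 (adjusted p = 0.061). The block changed no other call of a member than those of INPP4B and of PIK3C2A in CD90+/CD133- cells.

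Leaving out a replicate number or an array gave counts of genes called lower from 0 to 1 in CD90+/CD133- and from 1 to 2 in CD90+/CD133+ cells, where PIK3R1 was added without replicate 3 or its CD90-/CD133- array (-0.31 and -0.33, adjusted p = 0.0403 and 0.023). INPP4B lost its call in CD90+/CD133- cells without replicate 2, 4 or 5 as a whole, without any CD90-/CD133- array of replicates 2 to 5, and without the CD90+/CD133- array of replicate 2, 3 or 4. The difference over these fits ran from -0.47 to -0.33 and the adjusted p from 0.051 to 0.128. PIK3C2A kept its call in 5 of 20 such fits, those without replicate 1 or 2, without the CD90-/CD133- array of replicate 2 or without the CD90+/CD133- array of replicate 1 or 2. Elsewhere its difference was 0.16 to 0.26, with adjusted p from 0.0512 to 0.185. The difference of PIK3R1 in CD90+/CD133- cells, never called, ran from -0.0896 to 0.1134 and turned negative in 6 fits, those without replicate 3 or 4 or either of their arrays. With 5 arrays a fraction, a log2 difference of 0.24 passed for PIK3C2A and one of -0.24 did not for PIK3R1, and the probe sets of PIK3CB, PIK3CD and PIK3R3 that were not the brightest read under 38 units.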
